A study of Mus musculus with 12 samples.

Results

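The comparison of AP2gamma knockout with wild-type rostral cortex covered 6 of the 12 arrays of the series. They were chosen by their titles, which place 3 arrays in the rostral knockout group (KO, animals 7, 8 and 15) and 3 in the rostral wild-type group (WT, animals 10, 12 and 16). The tissue was the rostral piece of the cerebral cortex of mouse embryos at embryonic day 14, and 400 ng of total RNA per array were amplified and labelled with biotin. The other 6 arrays, 3 KO (animals 1, 2 and 13) and 3 WT (animals 4, 6 and 14), held caudal cortex of the same age. No strain, allele, Cre driver, sex or litter is given in the sources used here, so the cells in which AP2gamma was missing cannot be stated, and no treatment is named. Each array carried its own animal number, with 1 late-numbered animal in each rostral group (15 and 16). Nothing states how the numbers relate to litters or days, so p-values measure the spread between these arrays. Values are log2 signals of probe sets, and a difference is KO minus WT on that scale with the standard error (SE) of the fit.

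AP2gamma, encoded by Tfap2c, is a transcription factor that binds GC-rich sites as a dimer. In the embryonic cortex, radial glia divide at the ventricular surface and give rise to neurons directly or through basal progenitors, which leave that surface, divide further out and are marked by the T-box factor Eomes (Tbr2). The series title concerns the part of AP2gamma in basal progenitor fate. In pieces of tissue, fewer cells of a type and less RNA per cell cannot be told apart.

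The tissue carried the markers of dorsal cortex on all 6 arrays, with Emx1 between 8.22 and 8.98, Pax6 between 10.15 and 10.40 and Neurod6 between 11.57 and 12.40. Emx1 was lower in KO by -0.36 on that probe set, with overlapping arrays. Its second tested probe set, of lower signal, differed by -0.96 without overlap (6.74, 6.34 and 6.01 in KO against 7.34, 7.48 and 7.14 in WT). The targeted gene checked the labels only in part. On its probe set of highest mean, Tfap2c read 8.11, 8.63 and 8.09 on KO arrays 7, 8 and 15 against 9.06, 9.0 and 8.54 on WT arrays 10, 12 and 16. The groups overlapped there, because KO 8 lay above WT 16, and 66.4% of the WT signal remained. On the other 2 probe sets of the gene the arrays did not overlap, with 61.0% and 61.5% remaining. Where these probes lie relative to the removed sequence is not given in the sources used here. A pair of arrays stood apart in other ways. KO 15 had the highest level of meningeal markers, described with the cell type markers, and WT 12 was the single rostral array with high Xist (11.89, with Eif2s3y at 2.60), and values without either array are given for gene lists whose counts turn on it. The 3' minus 5' signal of the Gapdh control probes, a measure of RNA length, was -0.54, -0.63 and -0.52 in KO and -0.47, -0.43 and -0.36 in WT and did not overlap, whereas that of actin did. Its part in the results was not tested.

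No gene, Tfap2c included, passed the test for rostral cortex. Of 11785 genes tested with limma, 0 (0%) had a Benjamini-Hochberg adjusted p under 0.05, and the smallest adjusted p was 0.12. At an unadjusted p under 0.05 there were 789 genes (6.69%), of which 384 were higher in KO (3.26%) and 405 lower (3.44%). In 1528 genes (13%) all 3 KO arrays lay on the same side of all 3 WT arrays, 644 of them higher (5.46%) and 884 lower (7.5%). Over all tested genes, 5309 had a higher and 6476 a lower mean in KO, the background for the counts of signs in gene lists below. Most differences were small. The median absolute difference was 0.12, and 95% of genes differed by less than 0.49. A difference of more than 1 on this scale was reached by 93 genes, 37 higher and 56 lower, and 44 of these were above the median signal of the table on some array of both groups. The words higher and lower below therefore describe measured means, none of which passed after adjustment in these 12 arrays. Without KO 8 the count at an unadjusted p under 0.05 was 499, and 1 gene, Neurod4, then passed after adjustment.

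**Figure D1:**
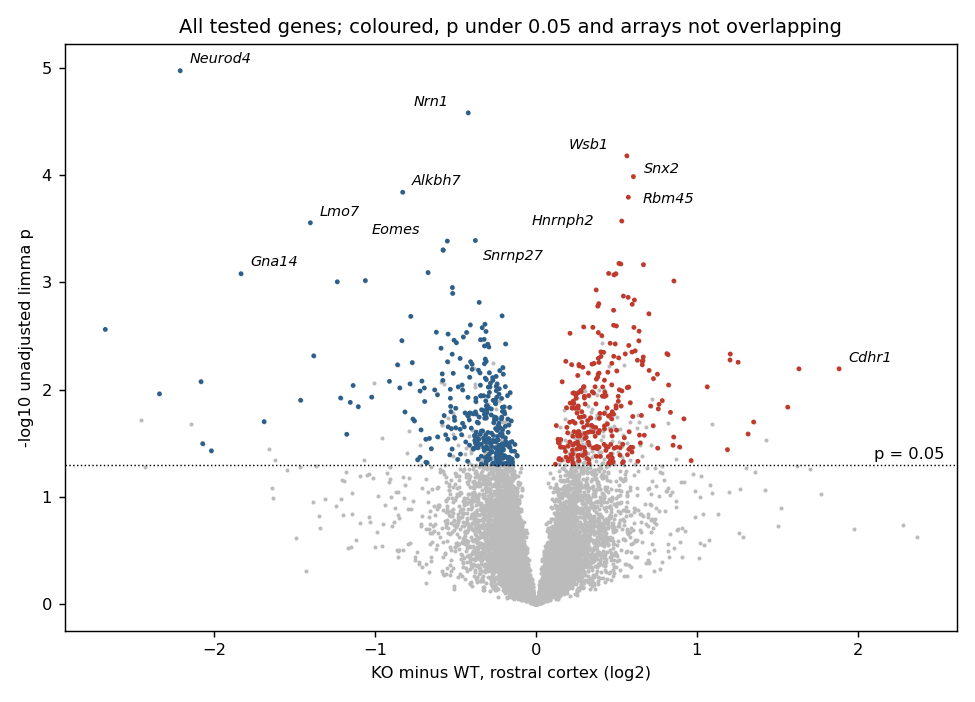
Difference between KO and WT rostral cortex (x axis, log2) against the unadjusted limma p (y axis, -log10) for the 11785 tested genes. Coloured points are genes with p under 0.05 whose 3 KO and 3 WT arrays did not overlap, blue where lower and red where higher in KO; Neurod4 has the smallest p, and most other named genes of small p differ by less than 1.

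The gene of smallest p was a factor of neuronal differentiation that is expressed in intermediate progenitors. Neurod4, a basic helix-loop-helix transcription factor, read 4.45, 5.76 and 4.58 on KO arrays 7, 8 and 15 against 7.44, 6.88 and 7.09 on WT arrays 10, 12 and 16. The groups did not overlap and were 1.13 apart, with KO 8 the nearest to WT. The difference was -2.21 ± 0.32 (SE), or 21.6% of the WT signal, with a limma adjusted p of 0.12 that lay between 0.0042 and 0.53 in 21 alternatives and passed in 2. Since 2 of the 3 KO arrays lay under the median signal of the table, 5.21, the 4.63-fold difference shrank to 3.35-fold when lower values were raised to that level. A second probe set read 3.45, 4.05 and 1.63 in KO, all below 5.21, against 6.60, 6.55 and 6.10 in WT, so its KO level is only a bound. Eomes, the defining transcription factor of basal progenitors, read 10.17, 10.31 and 10.13 in KO and 10.62, 10.99 and 10.66 in WT. These groups were also apart, with a gap of 0.31 between them, and the difference was -0.55 ± 0.12 (limma adjusted p 0.48, between 0.082 and 1.00 in 22 alternatives, with 0 passing). Its second tested probe set also separated the arrays and differed by -0.40.

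Promoters of 3 genes lower in KO are shown because AP2 factors are known to bind the palindrome GCCNNNGGC, which reads the same on both strands. In the RefSeq table of mouse promoters (build GRCm38.p6, 250 bases before to 50 after each start, 5' to 3' on the gene's strand), the 9 letters of this motif occur in 16.6% of 32851 promoters. They are absent from the windows of Neurod4 (chr10:130280205-130280504, minus strand) and Eomes (chr9:118477939-118478238, plus strand), and once in that of Lmo7 (chr14:101729678-101729977, plus strand), where capitals mark the match.
Neurod4: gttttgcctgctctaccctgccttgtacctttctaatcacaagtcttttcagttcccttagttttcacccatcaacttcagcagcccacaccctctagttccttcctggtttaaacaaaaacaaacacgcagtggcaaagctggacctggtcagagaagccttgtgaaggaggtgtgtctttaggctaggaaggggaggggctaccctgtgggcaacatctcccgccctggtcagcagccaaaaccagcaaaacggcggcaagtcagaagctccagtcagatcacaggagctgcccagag
Eomes: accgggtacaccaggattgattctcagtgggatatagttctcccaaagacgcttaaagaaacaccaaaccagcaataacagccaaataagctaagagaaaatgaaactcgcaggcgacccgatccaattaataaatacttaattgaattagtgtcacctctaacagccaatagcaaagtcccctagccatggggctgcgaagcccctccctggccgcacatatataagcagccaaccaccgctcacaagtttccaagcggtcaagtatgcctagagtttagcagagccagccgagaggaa
Lmo7: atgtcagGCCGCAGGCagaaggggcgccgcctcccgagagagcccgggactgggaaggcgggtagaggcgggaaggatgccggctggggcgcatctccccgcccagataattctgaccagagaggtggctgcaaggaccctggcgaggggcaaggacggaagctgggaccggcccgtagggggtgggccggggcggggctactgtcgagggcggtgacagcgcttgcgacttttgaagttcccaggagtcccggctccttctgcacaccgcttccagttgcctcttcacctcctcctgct
Each of Neurod4 and Lmo7 has another promoter in the table, also without a match. The same search found no match for Kif26b, Alkbh7 and Snrnp27, also lower in KO, or for Rbm45 and Hnrnph2, higher in KO. It found 1 in a promoter of Wsb1, a gene higher in KO. Among tested genes with a promoter in the table, 29.4% of 9563 held the motif, against 28.4% of the 327 that were lower and 29.7% of the 310 that were higher in KO at an unadjusted p under 0.05. The letters were thus about as common in all 3 sets.

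**Figure D2:**
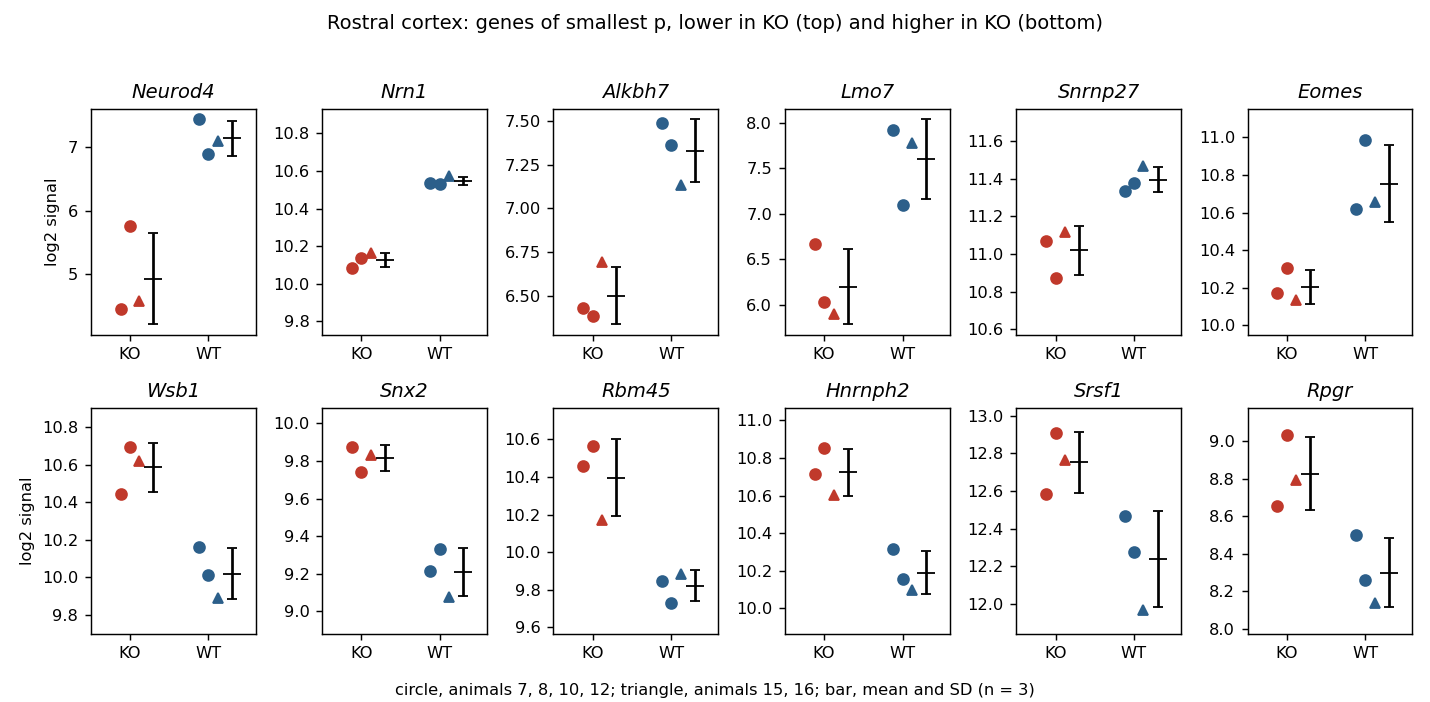
Log2 signal (y axis, own scale in each panel) of the 6 genes of smallest p lower in KO (top) and the 6 higher in KO (bottom) on each rostral array, with the mean and SD of each group (n = 3). Triangles are the late animals 15 and 16; in none of the 12 panels do the KO and WT arrays overlap, and Neurod4 has the widest space between them.

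Basal progenitor genes differed in both directions. Among 27 tested genes of the list, 18 had a lower and 9 a higher mean in KO, with a median difference of -0.08, beside -0.02 over all genes. Their mean signal, which includes Neurod4, was 9.27 to 9.34 on the KO arrays and 9.41 to 9.49 on the WT arrays, without overlap. At an unadjusted p under 0.05, 3 were lower (Neurod4, Eomes and Kif26b) and 2 higher, while there were 5 lower without KO 15 and 0 higher without KO 8. Over all genes, 3.44% were lower and 3.26% higher at that p. Kif26b, a kinesin-family protein, read 7.91, 7.94 and 8.01 in KO against 8.53, 8.28 and 8.53 in WT, a difference of -0.49 ± 0.14 with no overlap. Going the other way, Dll3, a Notch ligand of the Delta family that acts within the signalling cell, read 8.80, 8.85 and 8.67 in KO against 8.45, 8.33 and 8.35 in WT (0.40 ± 0.15, no overlap). The proneural factor Neurog2, which acts upstream of Eomes in the neuronal lineage, differed by 0.02 with a 95% confidence interval of -0.32 to 0.36. Neurod1, a related factor, differed by -0.18 (-0.41 to 0.05). Both intervals ended above the -0.55 measured for Eomes, but both overlapped its own interval of -0.80 to -0.30. Whether these genes differed from Eomes was not tested. The probe sets of the progenitor factor Insm1 disagreed, with -0.09 on the brighter and 0.77 on the other, and each separated the arrays.

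Radial glial genes of small p were higher in KO. The list had 33 tested members, 17 higher and 16 lower with a median of 0.01, but all 7 that reached an unadjusted p under 0.05 were higher. Those 7 were 21.2% of the list, beside 3.26% of all genes that were higher at that p. Ptn, a secreted growth factor, read 11.84, 12.25 and 12.03 in KO against 11.77, 11.50 and 11.21 in WT (0.54 ± 0.13). Slc1a3, the glial glutamate transporter GLAST, read 9.44, 9.68 and 9.98 against 9.25, 8.93 and 9.25 (0.56 ± 0.16), and the progenitor factor Sox1 read 9.35, 9.67 and 9.42 against 9.10, 9.11 and 8.48 (0.59 ± 0.21). None of these 3 genes overlapped between groups, although the highest WT and lowest KO arrays of Ptn were only 0.07 apart. Another bright probe set of Ptn differed by only 0.04, with overlapping arrays. The other 4 were Cdh2 (0.21 ± 0.07), encoding N-cadherin, the lipid-binding protein gene Fabp7 (0.15 ± 0.06), the cyclin gene Ccnd1 (0.24 ± 0.10) and Hopx (0.30 ± 0.13). The second tested probe sets of Cdh2 and Hopx went the other way, to -0.14 and -0.16. Pax6 and Sox2, which define these cells, differed by -0.05 (95% confidence interval -0.23 to 0.14) and 0.32 (-0.0054 to 0.64), and the other tested probe sets of Pax6, all of lower signal, ranged from -0.25 to 1.24. The 7 higher genes became 2 without KO 8, 3 without WT 16 and 4 without KO 15, the array with meningeal signal, and in the last case 2 members were lower.

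Among Notch pathway genes, 15 of 25 were higher in KO. At an unadjusted p under 0.05, where 3.26% of all genes were higher and 3.44% lower, the list had 4 members, all higher. These were the ligands Jag1 (7.94, 8.07 and 8.03 in KO against 7.90, 7.38 and 7.26 in WT, 0.50 ± 0.18), Dll3 and Dner (0.37 ± 0.17) and the receptor-cleaving protease Adam10 (0.21 ± 0.09). In Jag1 the groups were 0.04 apart, with WT 10 close to the KO arrays, and 1 of its 3 tested probe sets differed by -0.06. The 4 became 1 without KO 8, WT 12 or WT 16, and 2 without KO 15. In the list of cyclin-dependent kinase inhibitors, which hold back the cell cycle, and D-type cyclins, which drive it, 4 of 13 were higher and 0 lower at that p. Cdkn1b, which encodes the inhibitor p27, read 10.68, 11.09 and 10.61 in KO against 10.42, 10.26 and 10.20 in WT (0.50 ± 0.21, no overlap). The others were Cdkn1c, encoding p57 (0.30 ± 0.14), Ccnd1 and Rb1 (0.23 ± 0.10). Their count was 0 without KO 8 or WT 16 and 2 without KO 15 or WT 12. Genes of the S phase showed no member at that p among 24. In the G2 and M phase, 2 of 29 reached it (6.9%), near the 6.69% of all genes in either direction. Both were lower, the mitotic kinase gene Cdk1 (-0.35 ± 0.13, no overlap) and its partner Cks2 (-0.23 ± 0.09). That count was 1 without KO 8 or WT 10 and 0 without WT 12, when 19 of the 29 were higher, and 5 of 29 were higher in the early animals against 23 in the late pair. Gpsm2, which orients the spindle of dividing progenitors and stood outside these lists, read 8.81, 8.68 and 8.59 in KO and 9.25, 9.39 and 9.17 in WT. Its difference of -0.58 ± 0.13 was nearly equal in the early and late animals (-0.57 and -0.58), and it had a limma adjusted p of 0.49.

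Neuronal genes differed in both directions. Nrn1, which encodes neuritin, a membrane-anchored protein that promotes neurite growth, had the second smallest p. It read 10.09, 10.13 and 10.16 in KO and 10.54, 10.53 and 10.57 in WT. The arrays of each group lay within 0.1 of each other and the groups were 0.37 apart. The difference was -0.42 ± 0.07, or 74.7% of the WT signal, with a limma adjusted p of 0.15 (between 0.031 and 1.00 in 22 alternatives, with 2 passing). Rbfox3, the neuronal nuclear antigen NeuN, was also lower at -0.36 ± 0.11, and its arrays were only 0.02 apart. In contrast the neurofilament gene Nefm read 7.75, 7.67 and 8.25 in KO and 7.17, 7.55 and 7.03 in WT (0.64 ± 0.18), and the excitatory neuron factor Neurod6 was higher by 0.41 ± 0.12 with overlapping arrays. Of 30 young neuron genes, 13 were higher and 17 lower with a median of -0.05. Over all genes, 5309 were higher and 6476 lower with a median of -0.02. The sign of the young neuron median turned without WT 16 (20 higher, median 0.10) and without KO 8 (16 higher, median 0.03). No upper layer gene among 16 reached an unadjusted p under 0.05, and 1 of 19 deep layer and subplate genes did, Foxp2, at 0.46 ± 0.21 and with separate arrays. That share of the deep layer list, 5.26%, was near the 6.69% of all genes. Without KO 7, WT 12 or WT 16, 0 deep layer genes were higher at that p. The brightest probe set of the layer marker Bcl11b (Ctip2) differed by 0.0072 (95% confidence interval -0.25 to 0.26), but its other 3 were lower, by as much as -0.37, and 2 of them separated the arrays. Cux2 differed by -0.0044 (-0.74 to 0.73), Tbr1 by 0.38 (-0.02 to 0.77) and Fezf2 by -0.27 (-0.54 to 0.0032). The interval of Cux2 was wide, and the spread behind it comes from rostral and caudal arrays together. In rostral cortex WT 12 read 8.82 beside 9.64 and 9.73 on the other WT arrays.

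Genes of messenger RNA splicing were among those of smallest p in both directions, with more of them higher. Of 48 tested genes of the spliceosome and RNA-binding list, 33 were higher and 15 lower with a median of 0.08. At an unadjusted p under 0.05, 8 were higher and 2 lower, and the arrays were apart in 11 higher and 3 lower. Over all genes, 3.26% were higher and 3.44% lower at that p, and arrays were apart in 5.46% higher and 7.5% lower. Rbm45, an RNA-binding protein of the developing nervous system, read 10.46, 10.56 and 10.17 in KO and 9.85, 9.73 and 9.89 in WT (0.57 ± 0.11, limma adjusted p 0.31, between 0.040 and 1.00 in 22 alternatives, with 1 passing). Its early animals differed more than its late ones, by 0.72 and 0.28. Hnrnph2, an X-linked splicing regulator, read 10.72, 10.85 and 10.60 against 10.32, 10.16 and 10.10 (0.53 ± 0.11). Among the rostral arrays only WT 12 had high Xist, and the part of sex in this difference was not tested. Srsf1, a splicing activator, read 12.58, 12.91 and 12.77 against 12.47, 12.28 and 11.96 (0.52 ± 0.12), and all 6 of its tested probe sets were higher, by 0.01 to 0.52. Ddx17, an RNA helicase, differed by 0.27 ± 0.08. On the lower side stood Snrnp27, a protein of the tri-snRNP, at 11.07, 10.87 and 11.12 in KO against 11.34, 11.38 and 11.47 in WT (-0.38 ± 0.08), and the core protein gene Snrpb (-0.27 ± 0.09). The second tested probe set of Snrnp27 went the other way, to 0.15. Over the whole list, the mean signal was 11.20, 11.25 and 11.25 on the KO arrays and 11.17, 11.18 and 11.13 on the WT arrays, without overlap. The count of 8 became 4 without KO 8 and 5 without WT 16. Separate list means were not particular to splicing. They were also found for basal progenitor, Notch pathway, oxidative phosphorylation, cholesterol synthesis and sex-linked genes, while the means of the other lists overlapped.

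Most genes of the mitochondrial respiratory chain had a slightly lower mean in KO. Of 68 tested nuclear genes of oxidative phosphorylation, 56 were lower and 12 higher with a median of -0.09, and at an unadjusted p under 0.05 there were 12 lower and 0 higher. The arrays did not overlap in 19 of the 68, all lower. Over all genes, 3.44% were lower and 3.26% higher at that p, and 7.5% were lower without overlap. Complex I had 25 of 32 genes lower, complex II 4 of 4, complex III 7 of 9, complex IV 7 of 9 and complex V, the ATP synthase, 13 of 14. Ndufa3 of complex I read 11.51, 11.61 and 11.33 in KO and 11.65, 11.94 and 11.82 in WT (-0.32 ± 0.09), Ndufa10 differed by -0.32 ± 0.09, and Uqcr11 of complex III by -0.23 ± 0.08. The groups were apart in each of these 3 genes, by 0.04, 0.10 and 0.06. The mean signal over the list was 11.18, 11.11 and 11.13 on the KO arrays and 11.21, 11.27 and 11.22 on the WT arrays, so the groups were apart but by less than 0.1. The median was -0.10 in the early and -0.11 in the late animals, and -0.09 without KO 15. The number of lower genes at that p was sensitive to single arrays, from 3 without KO 8 to 19 without WT 10. Genes for the ribosome that translates mitochondrial messages were also mostly lower, with 53 of 67 mitochondrial ribosomal genes lower, a median of -0.09, and 7 lower and 1 higher at that p. Mrps30 read 8.40, 8.47 and 8.11 in KO and 8.79, 8.90 and 8.59 in WT (-0.43 ± 0.12, no overlap). Without KO 15 or WT 12 the 7 became 3, and without KO 7 they became 11. Dap3, another mitochondrial ribosomal protein, differed by -0.35 ± 0.09, whereas ND5, a complex I subunit encoded by the mitochondrial genome, was higher at 12.16, 12.44 and 12.47 against 12.12, 11.87 and 11.97 (0.37 ± 0.09). In glycolysis and hypoxia genes, 3 of 20 were lower at that p, the lactate dehydrogenase gene Ldha (-0.35 ± 0.11), Pfkl (-0.31 ± 0.11, with another probe set at 0.30) and Pkm (-0.30 ± 0.10), while 10 of the 20 were higher. Cytosolic ribosomal genes were even in sign, with 15 of 30 higher, but at that p 3 were higher and 6 lower. These made up 30% of the list, beside 6.69% of all genes, and arrays were apart in 4 higher and 8 lower members. The 3 and 6 became 2 and 3 without KO 15, and 1 and 3 without KO 8. In caudal cortex the medians of the 2 lists were 0.01 for oxidative phosphorylation and 0.0012 for splicing. The Gapdh 3' minus 5' signal given above separated the same arrays as the mean signals of oxidative phosphorylation and splicing genes did. Mean signals of the mitochondrial ribosomal, glycolysis and cytosolic ribosomal lists overlapped. The part of the Gapdh signal in any of these lists was not tested.

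**Figure D3:**
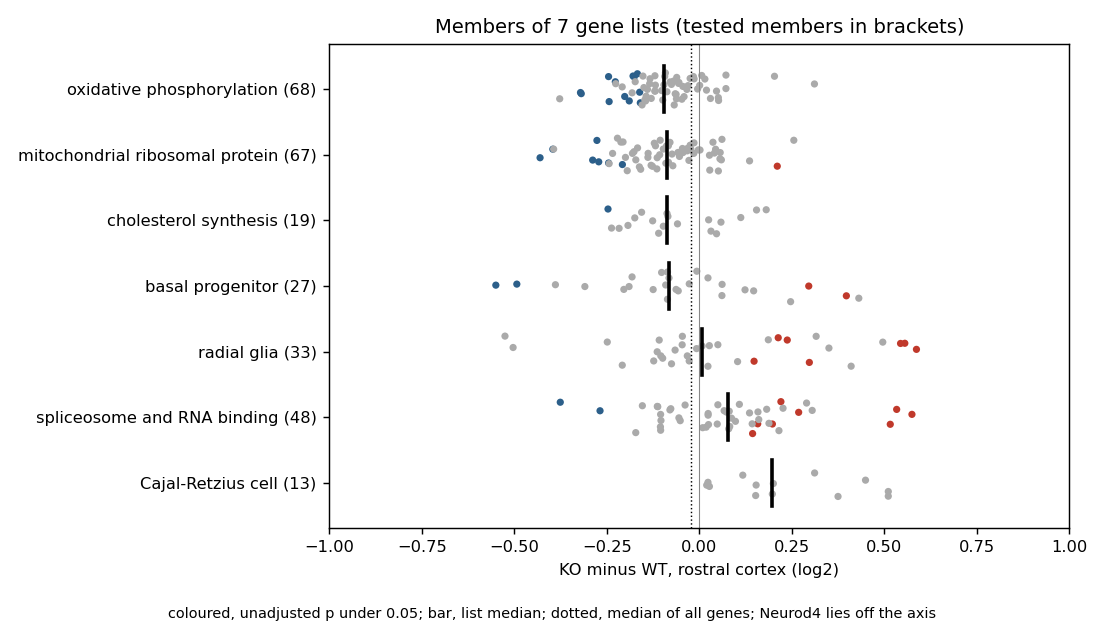
Difference between KO and WT rostral cortex (x axis, log2) for each tested gene of 7 lists, with the list median as a bar, the median of all genes (-0.02) as a dotted line and genes with unadjusted p under 0.05 coloured. Genes of oxidative phosphorylation (median -0.09) lie mostly to the left and those of splicing (median 0.08) mostly to the right, while basal progenitor and radial glial genes spread to both sides; Neurod4 lies outside the axis.

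Several of the genes of smallest p belonged to none of these groups. Wsb1, which encodes a substrate-binding subunit of a ubiquitin ligase, read 10.44, 10.69 and 10.62 in KO and 10.16, 10.01 and 9.89 in WT (0.57 ± 0.10, limma adjusted p 0.26), with no overlap. Snx2, a sorting nexin that works with retromer in endosomal sorting, read 9.87, 9.74 and 9.83 against 9.22, 9.33 and 9.08 (0.61 ± 0.11, limma adjusted p 0.30). Its binding partner Snx5 was higher as well, at 0.32 ± 0.13, and the 27 genes of the retromer and sorting nexin list had a median of -0.01. Lower genes included Alkbh7, a mitochondrial protein of the AlkB family, with 6.43, 6.39 and 6.69 in KO against 7.49, 7.36 and 7.13 in WT (-0.83 ± 0.16). Lmo7, a LIM domain protein of cell junctions, read 6.67, 6.03 and 5.90 against 7.92, 7.10 and 7.78 (-1.40 ± 0.29), so its groups were apart although WT 12 stood below the other WT arrays. Among genes higher in KO were Runx1t1, a transcriptional corepressor (0.67 ± 0.15), the ciliary gene Rpgr (0.53 ± 0.12) and Aco1, the cytosolic aconitase that binds iron-responsive RNA elements (0.50 ± 0.12). The second tested probe set of Aco1 went the other way (-0.31), and 2 of the 5 of Runx1t1 did (lowest -0.14).

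The widest spaces between the groups were in dim genes. Genes picked for that space give no separate check of it. Gna14, a G protein alpha subunit, read 4.11, 4.16 and 3.80 in KO and 5.74, 6.08 and 5.74 in WT, a gap of 1.58. All 3 KO arrays lay at or below 5.21, and the signal was 1.56-fold lower in KO when such values are raised to 5.21 (limma adjusted p 0.50 without raising). Sema3b, a secreted semaphorin, was 1.45-fold lower on the same basis (2.02, 3.21 and 4.00 against 5.49, 5.76 and 5.99). In the other direction Cdhr1, a cadherin-related protein known from photoreceptors and the olfactory bulb, read 6.28, 6.97 and 6.45 in KO and 4.85, 4.24 and 4.97 in WT. It was 2.56-fold higher with values raised to 5.21. Fli1, an ETS factor of endothelial and blood cells, was 1.69-fold higher on that basis. Without raising, the limma adjusted p was 0.63 for each of Sema3b, Cdhr1 and Fli1. In the list of AP2 factors and cofactors, arrays were apart in 2 of 9 tested genes, both lower. Over all genes, arrays were apart in 7.5% lower and 5.46% higher. The 2 were Kctd1 (6.53, 6.84 and 6.83 against 7.34, 7.19 and 7.30, -0.54 ± 0.21) and Kctd15 (-0.29 ± 0.09), which encode repressors of AP2 activity. Tfap2d, another AP2 gene, differed by -0.51 ± 0.35 with overlapping arrays, while the remaining AP2 genes, Tfap2a, Tfap2b and Tfap2e, did not pass the filter on dim probe sets. The untested probe set of Tfap2e read 4.91, 5.79 and 5.18 in KO against 3.65, 2.47 and 3.07 in WT, without overlap. Only KO 8 lay above 5.21 there, so the size of that difference is uncertain.

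Markers of other tissues set KO 15 apart. Of the 19 markers of meninges and mesenchyme, 10 were bright enough for the test, and their mean signal was 8.72 on KO 15 against 7.03 to 7.24 on the other 5 rostral arrays. Collagens led this, with Col3a1 at 9.97 on KO 15 and 4.77 to 5.67 elsewhere, and Col1a2 at 8.93 against 5.29 to 5.87. The list median of 0.40 became -0.06 without that array. Of the 25 tested vascular genes, 17 were higher in KO with a median of 0.23, which became 0.03 without KO 15, and their mean was 7.08 on that array against 6.69 to 6.76 elsewhere. Ganglionic eminence and interneuron genes had a mean of 8.19 on KO 15 against 7.40 to 7.88, with Dlx1 at 10.38 against 8.74 to 9.56. Their list median of 0.08 became -0.10 without it. Microglial genes (median -0.02) and red blood cell genes (-0.00016) did not separate the groups. The 13 tested Cajal-Retzius genes were all higher in KO with a median of 0.20, but 0 reached an unadjusted p under 0.05. Reln, the product that defines these cells, differed by 0.02, since KO 15 (11.35) and WT 16 (11.21) were both higher than the other 4 arrays (10.30 to 10.50). Leaving out single arrays gave 9 of 13 higher (without WT 12) to 13 of 13. The part of such cells in the other results was not tested.

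**Figure D4:**
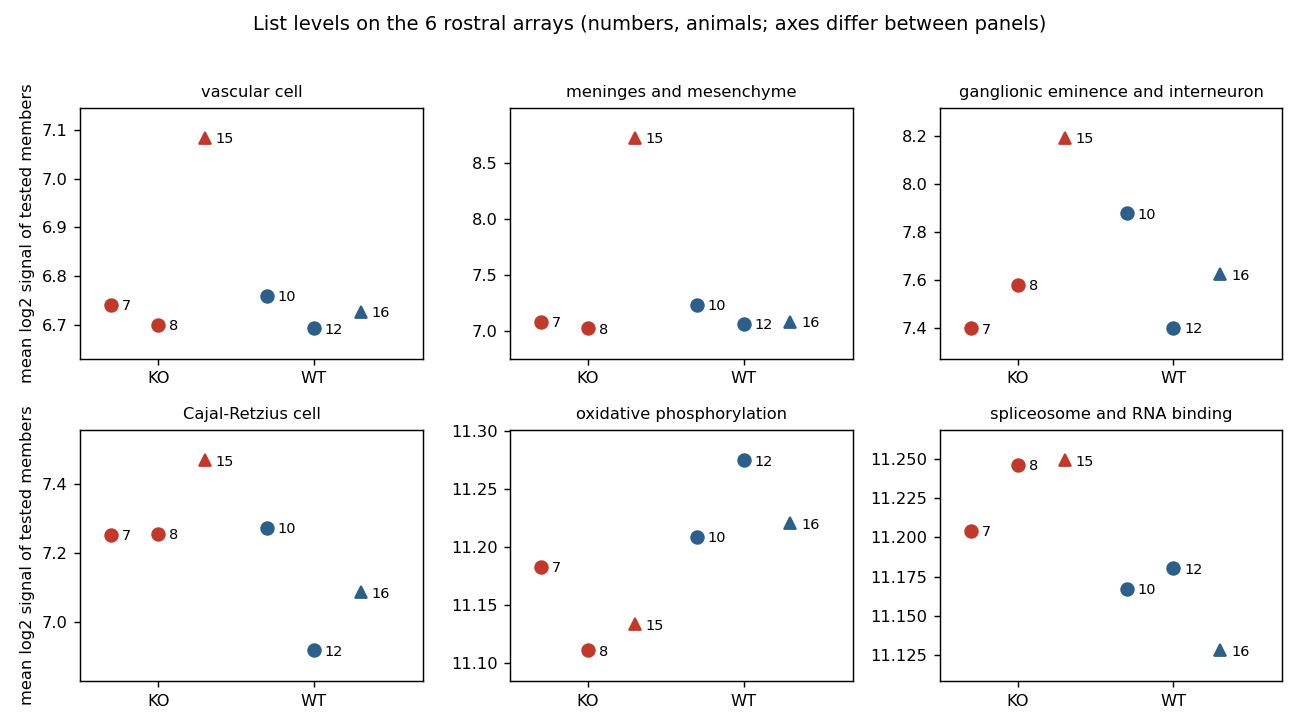
Mean log2 signal (y axis, own scale in each panel) of the tested members of 6 lists on each rostral array, numbered by animal; triangles are animals 15 and 16. KO 15 lies above all other arrays for vascular, meningeal and ganglionic eminence genes, while for oxidative phosphorylation and splicing genes the KO and WT arrays do not overlap.

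The early animals (7 and 8 against 10 and 12) and the late pair (15 against 16) share no array, so the late pair shows whether a difference recurs. Over all 11785 genes, 58.0% had the same sign in both sets, with a Pearson correlation across genes of 0.13, given as a description since genes are not independent. Of 681 genes at an unadjusted p under 0.05 in a fit of animals 1 to 12 alone (5.78% of genes), 494 (72.5%) had the same sign in the late pair. Of 126 genes at p under 0.01 the share was 75.4%, and of 20 genes at p under 0.001 it was 90%. The 2 exceptions among these 20 were Hk3, a hexokinase gene (2.61 early and -1.30 late), and Rps26, a ribosomal protein gene (-0.34 and 0.0028). Genes with nearly equal differences in both sets included Nrn1 (-0.42 and -0.41), Hnrnph2 (0.55 and 0.51), Eomes (-0.56 and -0.52) and Ttc28 (-0.56 and -0.55). Neurod4 differed by -2.06 and -2.51. Malat1, a nuclear long noncoding RNA, was higher in both, by 0.67 and 0.55. Nrn1, Hnrnph2, Eomes and Neurod4 are among the genes of smallest p in a fit that includes animals 15 and 16. Ttc28 and Malat1 were chosen after their values were seen. The agreement of these genes is thus no separate check of recurrence. Fitting animals 13 to 16 as an additive block again gave 0 genes past the adjusted threshold, with a smallest adjusted p of 0.052, and 1230 genes at an unadjusted p under 0.05, 594 higher (5.04%) and 636 lower (5.4%).

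**Figure D5:**
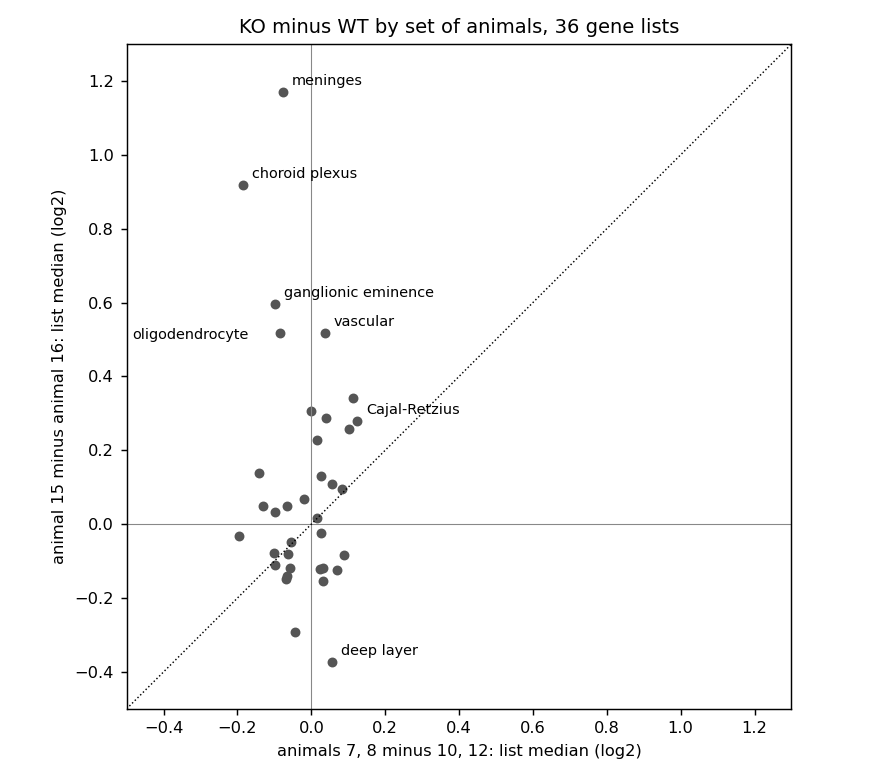
Median difference between KO and WT for each of 36 gene lists in the early rostral animals (x axis, log2) against the late pair (y axis, log2), with the line of equal values dotted. Meningeal genes (-0.08 early, 1.17 late), choroid plexus, ganglionic eminence, oligodendrocyte and vascular genes lie far above the line, and most other lists lie near 0 on both axes.

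The caudal arrays show which rostral differences recurred in other tissue pieces. The difference of the KO effects (rostral minus caudal) passed in 0 of 11785 genes (0%) with limma, and 358 genes (3.04%) had an unadjusted p under 0.05. In caudal cortex the KO and WT arrays did not overlap in 886 genes (7.52%). In rostral cortex they did not overlap in 1528 genes (13%). Of the 11785 genes tested, 139 had KO arrays separated from WT the same way in both regions, and 29 in opposite ways. How many would coincide if the separations were unrelated was not tested. Neurod4 and Eomes had rostral effects of -2.21 and -0.55 and caudal effects of -2.31 and -0.58, so the differences between regions were 0.10 ± 0.46 and 0.03 ± 0.17. Slc1a3 (0.56 rostral, 0.58 caudal), Ptn (0.54 and 0.48) and Id2 (0.42 and 0.63), an inhibitor of basic helix-loop-helix factors, differed between the regions by -0.03 ± 0.23, 0.06 ± 0.19 and -0.21 ± 0.20. Srsf1 (0.52 and 0.04), Runx1t1 (0.67 and 0.10) and Sertad4 (-0.58 and -0.12) had smaller caudal effects, with limma adjusted p of 1 for each difference. Snx2 had the smallest p of this test, with a caudal effect of -0.37 and a difference of 0.98 ± 0.16 (limma adjusted p 0.34), and with animals 13 to 16 as a block it was the single gene to pass (0.00849%, adjusted p 0.027). Genes of rostral patterning and fibroblast growth factor response were higher in 12 of 15 cases (median 0.12), or 9 of 15 without KO 15 (median 0.04), and 0 reached an unadjusted p under 0.05. The caudal patterning list was even, with 7 higher and 5 lower and a median of 0.03. Id2 alone reached that p (8.33% of the list, beside 6.69% of all genes). Arrays were apart in 3 higher members, Id2, Emx2 (0.50 ± 0.27, groups only 0.01 apart) and Nr2f2 (0.58 ± 0.31), and in 2 lower members, Crym (-0.37) and Lmo4 (-0.16).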

How the data were processed

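Each array gave 1 log2 value for each of 45101 probe sets in the table deposited by the authors. The unit was read from the values, and the methods of background correction, normalisation and summarisation are not given in the sources used here. Array medians were 5.21 or 5.22, and no further scaling was applied. Precision is limited by having 3 arrays in each group. Probe sets were named from the platform annotation (34958 with 1 gene, 932 with several, 9211 with none). A probe set was tested when above 5.21, the table median, on at least 3 of 12 arrays, and the gene's tested probe set of highest mean stood for it, which gave 11785 of 18194 genes. A group with all arrays at or below 5.21 is dim.

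All 12 arrays were fitted with limma 3.58.1 in R 4.3.3, with 1 mean per group and moderation that follows the signal level (degrees of freedom: 8 residual, 5.37 prior), so the spread comes from all groups. P-values are two-sided, adjusted by the Benjamini-Hochberg method over all tested genes, threshold 0.05. The script was tested on simulated data. Genes were named by rule: those past the threshold in the fit or with animals as a block, the 15 of smallest p and the 10 with the widest gap in each direction, up to 4 per list by p, and a panel of marker genes; others, such as the remaining list members, Malat1, Ttc28, Hk3 and Rps26, were chosen after their values were seen. The 36 lists had 857 members, of which 711 were tested. The members and lists were chosen with earlier results of these data known. Alternatives were other normalisation, values raised to 5.21, other filters, the mean over probe sets, other moderation, array weights, rostral arrays only, animals 13 to 16 as a block or left out, a covariate for arrays with high Xist, and each rostral array left out.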

Additional observations from a re-analysis of the deposited data

Results flagged for a closer look

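In 4 of the genes named by the rule, the KO and WT arrays separated in opposite directions in the 2 regions, as they did in 29 of all tested genes. The difference of the KO effects, rostral minus caudal, was -4.27 for Aanat, a gene of melatonin synthesis that was dim in rostral KO and read at most 5.89 on any array (its rostral effect was -0.40 with values raised to 5.21), -1.89 for Fgf18, a fibroblast growth factor, -0.69 for Mrpl11, a mitochondrial ribosomal protein, and 0.98 for Snx2. None passed after adjustment in the limma fit (smallest adjusted p 0.34, for Snx2), and with animals 13 to 16 as a block Snx2 alone passed.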

How the results depend on the processing

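With 3 arrays per group and no gene past the threshold, these data bound few effects. Raising values to 5.21 let 4 genes pass (Neurod4, Nrn1 and BC034090 lower, Cdhr1 higher), and array weights let 2 pass (Nrn1 lower, Rbm45 higher). Leaving out 1 array gave 0 to 1 genes (Neurod4 without KO 8). The count at an unadjusted p under 0.05 was 1238 with array weights, 1230 with animals 13 to 16 as a block, 1216 with that block in rostral arrays alone, and 499 to 1048 over arrays left out. Genes without overlap numbered 4450 in animals 1 to 12 and 2237 to 3129 over arrays left out, since fewer arrays overlap less often. For rostral minus caudal effects, the block gave 1 gene, as did the block with the Xist covariate, Snx2 both times. The other alternatives run kept these counts within 1.5 times. Signs were compared where the difference was at least its SE. Averaging probe sets reversed Rgcc (0.086), Tcf12 (-0.089), Mcm6 (0.13), Mcm5 (-0.16), Etv5 (-0.091), Mrpl13 (0.047) and Kdm6a (-0.029). Animals 1 to 12 alone reversed Ccng1 (-0.018), Gad1 (-0.048), Clic6 (-0.014), Col3a1 (-0.10) and Fosl2 (0.074), and Col3a1 ran from -0.093 (without KO 15) to 2.34 (without KO 7) over arrays left out. The Xist covariate reversed Eif2s3y (-0.062, and -0.093 with the block). The causes were not tested. No paired analysis was possible because the animal numbers are not shared between groups.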
